A study of Caenorhabditis elegans with 4 samples.

Results

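The 7 genes described here encode factors that make piRNAs in the nematode Caenorhabditis elegans. They were chosen by name for their place in the pathway: prde-1, snpc-4, tofu-4 and tofu-5 for the complex that transcribes piRNA genes, and pid-1, parn-1 and henn-1 for maturation of the 5′ and 3′ ends. Earlier results of these data were known when the 7 genes were chosen. All 7 were found by symbol among the 20392 genes of the count table, and all 7 passed the filter on low counts, which kept 15008 genes. RNA came from whole first-stage (L1) larvae in 4 libraries. One group of 2 libraries was strain GW1183, mutant for met-1 (met-1-/-) and raised on RNAi bacteria against mes-4, called met-1 mutant mes-4(RNAi) larvae here. The other 2 libraries were wild type larvae of strain N2 on bacteria with the control plasmid L4440. MET-1 and MES-4 are the enzymes that methylate histone H3 at lysine 36, and the comparison asks which transcripts differ when both are impaired. All larvae hatched without food over 18 h and were fed the same RNAi bacteria as their parents for 2 h and 30 min before harvest. For all 4 libraries the recorded growth was 60 to 65 h at 20 °C, a time listed apart from hatching and feeding. Strain and RNAi target differ together between the groups, so their contributions cannot be told apart.

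In C. elegans most piRNAs are transcribed as short capped precursors from many small separate genes, each with its own upstream motif, by RNA polymerase II. A complex of PRDE-1, SNPC-4, TOFU-4 and TOFU-5 sits on these genes and is needed for the precursors to be made. The precursors are then cut at the 5′ end, loaded onto the Piwi protein PRG-1, trimmed at the 3′ end by PARN-1 and methylated there by HENN-1. The pathway is known for silencing foreign sequence in the germ line, which in an unfed or newly fed L1 larva is represented by a pair of primordial germ cells. The piRNAs themselves were not analysed here, and the values below are those of the transcripts that encode the factors.

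"Rose" and "fell" are used below for genes that DESeq2 called at an adjusted p under 0.05. Total counts were 29081819 and 35106597 in met-1 mutant mes-4(RNAi) larvae and 33272359 and 32593317 in wild type larvae. The targeted met-1 transcript averaged 115.2 ± 6.56 CPM (counts scaled to the library total) in met-1 mutant mes-4(RNAi) larvae and 165.5 ± 9.80 CPM in wild type larvae (SD, n = 2 each), and mes-4 averaged 27.7 ± 0.53 CPM in met-1 mutant mes-4(RNAi) larvae and 35.2 ± 1.09 CPM in wild type larvae. met-1 fell by DESeq2 (log2 fold change -0.57, DESeq2 adjusted p = 0.0039, edgeR adjusted p = 0.111), a call that was lost whichever library was left out. mes-4 was called by neither test (log2 fold change -0.39, DESeq2 adjusted p = 0.337, edgeR adjusted p = 0.267). Neither transcript was absent, and counts per gene do not show whether the remaining reads come from functional transcript. Of the 14 germ cell markers examined, such as pgl-1 and glh-1, all 14 were detected. Their summed level was 512 and 526 CPM in met-1 mutant mes-4(RNAi) larvae and 490.5 and 518 CPM in wild type larvae, with overlap between the groups. Single markers went both ways, and DESeq2 called 0 of the 14. Without overlap, 2 were lower (pgl-3 and nos-2) and 3 higher (glh-1, glh-4 and deps-1). Of the 15008 tested genes, 2744 were lower and 4061 higher without overlap. The 15 markers of oocytes, embryos or adult mothers summed to 94.0 and 50.4 CPM in met-1 mutant mes-4(RNAi) larvae and 155.5 and 94.3 CPM in wild type larvae. Of the 13 tested here, 12 had a log2 fold change below 0, against 48.5% of all tested genes. DESeq2 called 1 of the 13 lower and 1 higher. Of all tested genes it called 1.92% lower and 2.45% higher, shares that also stand beside the muscle and sperm calls below. The lower one was mex-6, at 4.20 and 1.48 CPM in met-1 mutant mes-4(RNAi) larvae, against 12.8 and 6.69 CPM in wild type larvae (DESeq2 adjusted p = 0.0197). The higher one was the yolk gene vit-6, at 3.51 and 4.67 CPM in met-1 mutant mes-4(RNAi) larvae, against 0.361 and 0.368 CPM in wild type larvae (log2 fold change 3.43, DESeq2 adjusted p = 2.06e-07). Of the other yolk genes listed, vit-5 was at 0 in every library and vit-2 below 1 CPM on average. The summed markers of intestine, epidermis and neurons overlapped between the groups. Those of body wall muscle did not overlap, at 8603 and 10314 CPM in met-1 mutant mes-4(RNAi) larvae and 7349 and 8268 CPM in wild type larvae, and 1 of the 5, the myosin gene myo-3, rose by DESeq2 (log2 fold change 1.26, DESeq2 adjusted p = 0.00263). Sperm markers summed to 6.499 and 8.03 CPM in met-1 mutant mes-4(RNAi) larvae and 10.76 and 10.95 CPM in wild type larvae. Most of the wild type sums came from fog-1, at 9.35 and 9.66 CPM, against 2.79 and 5.04 CPM in met-1 mutant mes-4(RNAi) larvae. In the opposite direction, spe-41 was at 1.96 and 2.11 CPM in met-1 mutant mes-4(RNAi) larvae and 0.240 and 0.399 CPM in wild type larvae. Of the 7 sperm markers, 5 averaged below 1 CPM. Among all 7, fog-1 fell (-1.32, DESeq2 adjusted p = 0.0236), spe-41 rose (2.60, DESeq2 adjusted p = 0.00757) and msp-142 was at 0. Each of these 5 marker calls was lost in at least 1 of the 4 DESeq2 fits that left out a library. In such samples a smaller number of cells of a type and less RNA per cell cannot be told apart.

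prde-1 was far lower in met-1 mutant mes-4(RNAi) larvae, while the means of the remaining 6 genes were 5.7% (tofu-5) to 27.9% (tofu-4) lower there than in wild type larvae. Against a threshold of 0.05, edgeR's quasi-likelihood test called 0 of the 7 genes. It also called 0% of all 15008 genes, the smallest adjusted p being 0.0556. DESeq2, the second count test, called 1 of the 7, prde-1, as lower, where 1.92% of all genes were called lower and 2.45% higher. Log2 fold changes (met-1 mutant mes-4(RNAi) over wild type) and their SE are from edgeR. All 7 genes had a log2 fold change below 0, against 48.5% of all tested genes, with a median of -0.28 against 0.01. In 4 of the 7 (prde-1, snpc-4, parn-1 and henn-1) every met-1 mutant mes-4(RNAi) library was below every wild type library, which was the case for 18.3% of all genes. At an unadjusted p under 0.05 edgeR counted 2 of the 7, prde-1 and henn-1, as lower, against 6.82% of all genes.

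**Figure D1:**
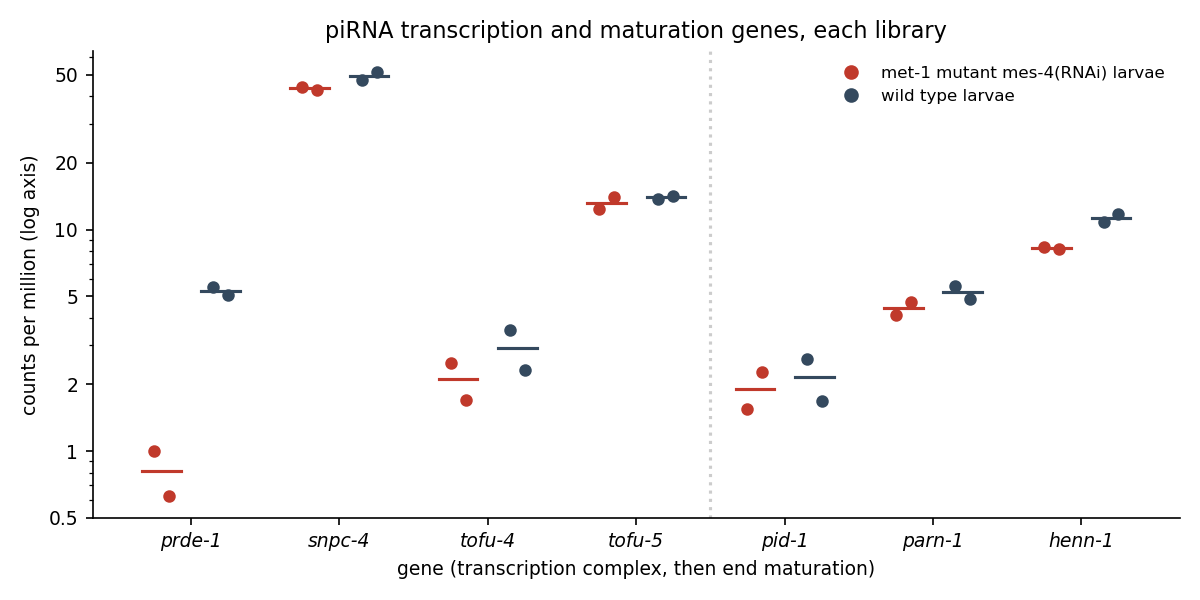
CPM (log axis) of the 7 genes in each library: points are libraries, horizontal bars are group means of 2 libraries, met-1 mutant mes-4(RNAi) left of wild type for each gene. prde-1 stands at 0.997 and 0.627 CPM in met-1 mutant mes-4(RNAi) larvae, far below 5.50 and 5.09 CPM in wild type larvae, while the groups of tofu-4, tofu-5 and pid-1 overlap.

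Within the transcription complex, prde-1 encodes a nuclear protein needed for precursors of the motif-dependent piRNAs to accumulate. Its transcript (WBGene00008995, chromosome V) had 29 and 22 reads in met-1 mutant mes-4(RNAi) larvae, against 183 and 166 reads in wild type larvae. In CPM this was 0.997 and 0.627 in met-1 mutant mes-4(RNAi) larvae, against 5.50 and 5.09 in wild type larvae. The exact Poisson 95% intervals, which cover counting error only, reached from 0.393 to 1.43 CPM over the met-1 mutant mes-4(RNAi) libraries and from 4.35 to 6.36 CPM over the wild type libraries, so that they did not meet.

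The mean of prde-1 fell to 0.812 ± 0.262 CPM in met-1 mutant mes-4(RNAi) larvae, against 5.30 ± 0.288 CPM in wild type larvae (SD, n = 2 each), 84.7% lower. The log2 fold change was -2.76 (SE 0.31), and 9 of the 15008 tested genes had a lower one. The replicates of a group were much closer to each other than the groups were: on log2(CPM + 0.5) they differed by 0.41 in met-1 mutant mes-4(RNAi) larvae and by 0.10 in wild type larvae, while the group means differed by -2.16. The adjusted p was 0.0617 with edgeR and 2.93e-07 with DESeq2. Leaving out wild type replicate 1 or wild type replicate 2 ended the DESeq2 call (adjusted p = 0.0539 and 0.0605), and the log2 fold change was between -3.097 and -2.49 whichever library was left out. With 2 libraries against 2, an exact two-sided permutation test of a single gene cannot give a p below 0.333. In the authors' deposited log2 values prde-1 stood at 5.29 and 4.78 in met-1 mutant mes-4(RNAi) larvae and 7.49 and 7.38 in wild type larvae. That scale adds 8 to the scaled count before the logarithm, which narrows differences of genes with few reads.

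**Figure D2:**
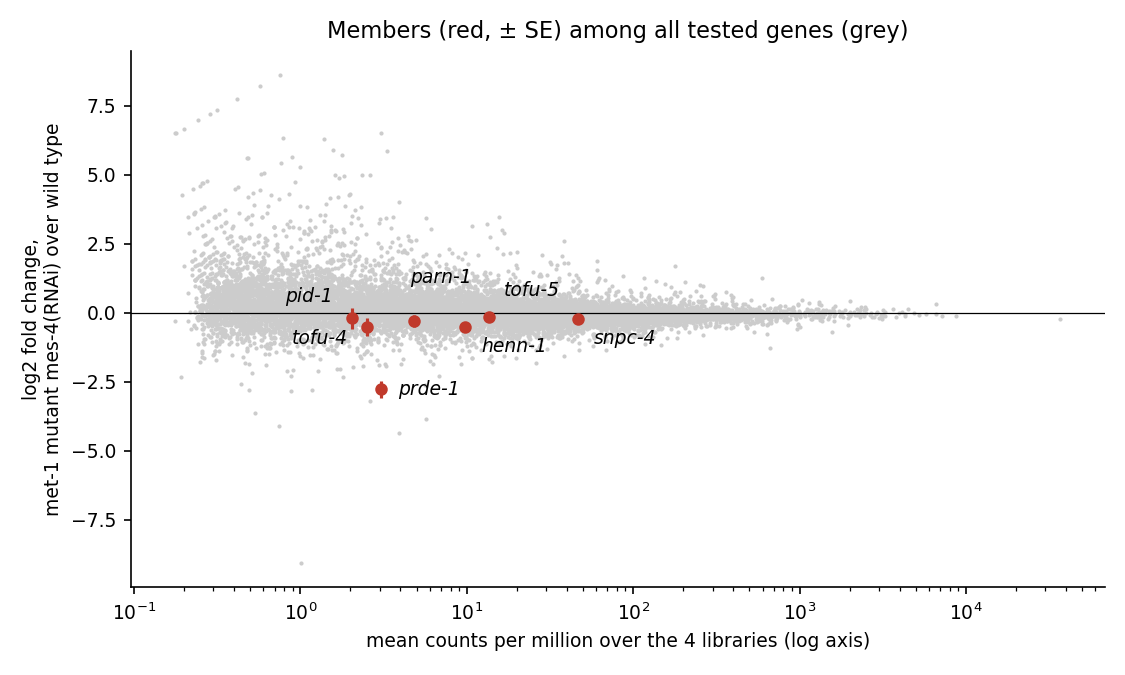
Log2 fold change of every tested gene (grey) against its mean CPM over the 4 libraries (log axis), with the 7 genes in red and bars of 1 SE. prde-1 lies at -2.76, below the band that holds the other 6 genes between -0.52 and -0.13.

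snpc-4 encodes the DNA-binding subunit of the small nuclear RNA activating complex, which also serves the small nuclear RNA genes. It was the most abundant of the 7 transcripts, with 44.0 and 42.8 CPM in met-1 mutant mes-4(RNAi) larvae, against 47.2 and 51.5 CPM in wild type larvae. The groups did not overlap, but the difference was small, a log2 fold change of -0.24 (SE 0.13) that neither test called (adjusted p = 0.479 with edgeR, 0.743 with DESeq2). tofu-5, which encodes a factor with a Myb-like DNA-binding domain, had 12.4 and 13.99 CPM in met-1 mutant mes-4(RNAi) larvae and 13.8 and 14.2 CPM in wild type larvae. These ranges overlapped, and the log2 fold change of -0.13 (SE 0.16) had an adjusted p of 0.778 with edgeR.

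tofu-4, the last gene of the complex, encodes a factor found in the same screens as TOFU-5. Its transcript was rare, with 60 to 117 reads per library. It had 2.51 and 1.71 CPM in met-1 mutant mes-4(RNAi) larvae and 3.52 and 2.33 CPM in wild type larvae. On log2(CPM + 0.5) the replicates differed by 0.45 in met-1 mutant mes-4(RNAi) larvae and by 0.50 in wild type larvae, more than the difference of -0.39 between the group means. Its log2 fold change of -0.52 (SE 0.33) was therefore not distinguishable from replicate spread (edgeR adjusted p = 0.553).

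Per length of gene model, the 4 transcripts of the complex differed in abundance. In RPKM, computed here as CPM per kilobase of the deposited gene length, snpc-4 stood at 14.3 and 13.95 in met-1 mutant mes-4(RNAi) larvae and 15.4 and 16.8 in wild type larvae. tofu-5 followed at 12.3 and 13.8 in met-1 mutant mes-4(RNAi) larvae and 13.6 and 14.01 in wild type larvae. snpc-4 was above tofu-5 in all 4 libraries. In met-1 mutant mes-4(RNAi) larvae prde-1 was below tofu-4, at 0.569 and 0.357 RPKM against 1.67 and 1.14 RPKM for tofu-4. In wild type larvae prde-1 was above tofu-4, at 3.14 and 2.91 RPKM against 2.35 and 1.56 RPKM for tofu-4. Of the summed RPKM of the 4 genes, prde-1 made up 1.97% and 1.22% in met-1 mutant mes-4(RNAi) larvae, against 9.11% and 8.24% in wild type larvae. The shares of snpc-4 were 49.7% and 47.8% in met-1 mutant mes-4(RNAi) larvae and 44.6% and 47.6% in wild type larvae.

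**Figure D3:**
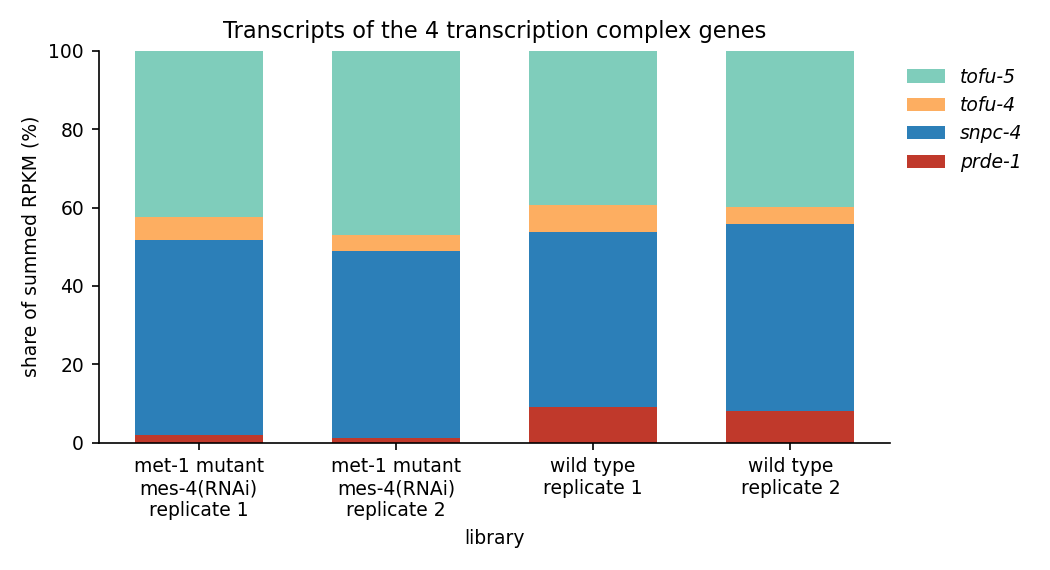
Share of each transcript in the summed RPKM of prde-1, snpc-4, tofu-4 and tofu-5, 1 bar per library, met-1 mutant mes-4(RNAi) on the left. The prde-1 share at the foot of each bar is 1.97% and 1.22% in met-1 mutant mes-4(RNAi) larvae, against 9.11% and 8.24% in wild type larvae, and snpc-4 and tofu-5 make up most of every bar.

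Of the maturation genes, henn-1 differed most. It encodes the methyltransferase that adds a methyl group to the 3′ end of piRNAs and of one class of siRNAs. It had 8.32 and 8.18 CPM in met-1 mutant mes-4(RNAi) larvae, against 10.8 and 11.8 CPM in wild type larvae. The groups did not overlap, and the mean was 27.1% lower in met-1 mutant mes-4(RNAi) larvae (8.25 ± 0.103 CPM) than in wild type larvae (11.3 ± 0.659 CPM; SD, n = 2 each). The log2 fold change was -0.51 (SE 0.16), with an unadjusted edgeR p of 0.0262. Adjusted over all genes, p was 0.267 with edgeR and 0.401 with DESeq2, so the difference did not pass.

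parn-1 encodes the exonuclease that trims piRNA precursors from the 3′ end. It had 4.13 and 4.73 CPM in met-1 mutant mes-4(RNAi) larvae and 5.59 and 4.85 CPM in wild type larvae. The groups did not overlap, but the higher met-1 mutant mes-4(RNAi) library and the lower wild type library were close, and the log2 fold change of -0.28 (SE 0.22) did not pass (edgeR adjusted p = 0.636). pid-1 encodes the piRNA-specific adaptor of the PETISCO complex, which binds the capped precursors. It had 1.55 and 2.28 CPM in met-1 mutant mes-4(RNAi) larvae and 2.61 and 1.69 CPM in wild type larvae, so the groups overlapped. Its log2 fold change of -0.20 (SE 0.37) had an adjusted p of 0.865 with edgeR. It was positive without met-1 mutant mes-4(RNAi) replicate 1 (0.07) and without wild type replicate 1 (0.11).

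In RPKM the order of all 7 genes in met-1 mutant mes-4(RNAi) larvae was snpc-4 (mean 14.2), tofu-5 (13.01), henn-1 (5.64), pid-1 (2.76), parn-1 (2.52), tofu-4 (1.41) and prde-1 (0.463). pid-1 and parn-1 overlapped and have no order there, and both prde-1 libraries were below those of tofu-4. The order in wild type larvae was snpc-4 (mean 16.1), tofu-5 (13.8), henn-1 (7.74), pid-1 (3.0996), prde-1 (3.02), parn-1 (2.97) and tofu-4 (1.95). Here pid-1, prde-1 and parn-1 overlapped. Among the 15008 tested genes, ranked by mean RPKM, prde-1 was at percentile 4.89 in met-1 mutant mes-4(RNAi) larvae, against percentile 30.0 in wild type larvae. snpc-4 was at percentile 58.5 in met-1 mutant mes-4(RNAi) larvae and 61.6 in wild type larvae.

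prde-1 was lower when expressed relative to the summed germ cell markers. That sum overlapped between the groups, so the ratio largely repeats the difference in CPM and is no separate evidence. The largest part of that sum was vbh-1, at 209.8 and 214.3 CPM in met-1 mutant mes-4(RNAi) larvae and 189.5 and 223.7 CPM in wild type larvae. Whether these markers came from germ cells alone was not tested. Per 1000 counts of the 14 germ cell markers there were 1.95 and 1.19 prde-1 counts in met-1 mutant mes-4(RNAi) larvae, against 11.2 and 9.83 in wild type larvae. For henn-1 there were 16.3 and 15.6 in met-1 mutant mes-4(RNAi) larvae, against 22.1 and 22.7 in wild type larvae. snpc-4, at 86.1 and 81.5 in met-1 mutant mes-4(RNAi) larvae and 96.2 and 99.4 in wild type larvae, differed less. The summed markers of oocytes, embryos and mothers were also lower in met-1 mutant mes-4(RNAi) larvae, with the nearest libraries at 94.0 CPM in met-1 mutant mes-4(RNAi) larvae and 94.3 CPM in wild type larvae, although vit-6 among them was higher. Summed muscle markers were higher in met-1 mutant mes-4(RNAi) larvae. The part of these markers in the prde-1 result was not tested.

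The 7 genes are not neighbours of one another. In the WBcel235 annotation snpc-4, tofu-4 and tofu-5 lie on chromosome I, pid-1 on II, henn-1 on III, and prde-1 and parn-1 on V. Because the submitters' processing notes name build ce10, no coordinates are given. The gene before prde-1, F21A3.4, was at 1.51 and 1.34 CPM in met-1 mutant mes-4(RNAi) larvae and 0.751 and 0.982 CPM in wild type larvae, a log2 fold change of 0.66. The globin gene glb-14 is annotated inside prde-1 on the opposite strand and shares 0 exon bases with it. glb-14 was at 8.73 and 7.80 CPM in met-1 mutant mes-4(RNAi) larvae and 11.1 and 9.08 CPM in wild type larvae, a log2 fold change of -0.34 (SE 0.18). Neither neighbour of prde-1 was called by edgeR (adjusted p = 0.474 and 0.464) or by DESeq2 (adjusted p = 0.867 and 0.766).

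Around the other 6 genes the 12 adjacent genes had log2 fold changes from -0.32 (mdt-31, after snpc-4, a Mediator subunit gene) to 0.63 (F18A1.1, before pid-1). None of the 14 adjacent genes was called by either test at an adjusted p under 0.05. Exons overlapped by 92 bases between tofu-4 and F57C9.6, by 86 between henn-1 and C02F5.14 and by 54 between parn-1 and frpr-15, each on the opposite strand. The overlap was 17 bases or fewer for the adjacent genes of snpc-4, tofu-5 and pid-1, and 10 bases between henn-1 and fbxl-1. F57C9.6 (0.22) and C02F5.14 (0.22) had log2 fold changes above 0, while tofu-4 and henn-1 were below 0. frpr-15 (-0.09) was below 0, as was parn-1. Without a stated strand setting, reads in these stretches cannot be assigned.

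**Figure D4:**
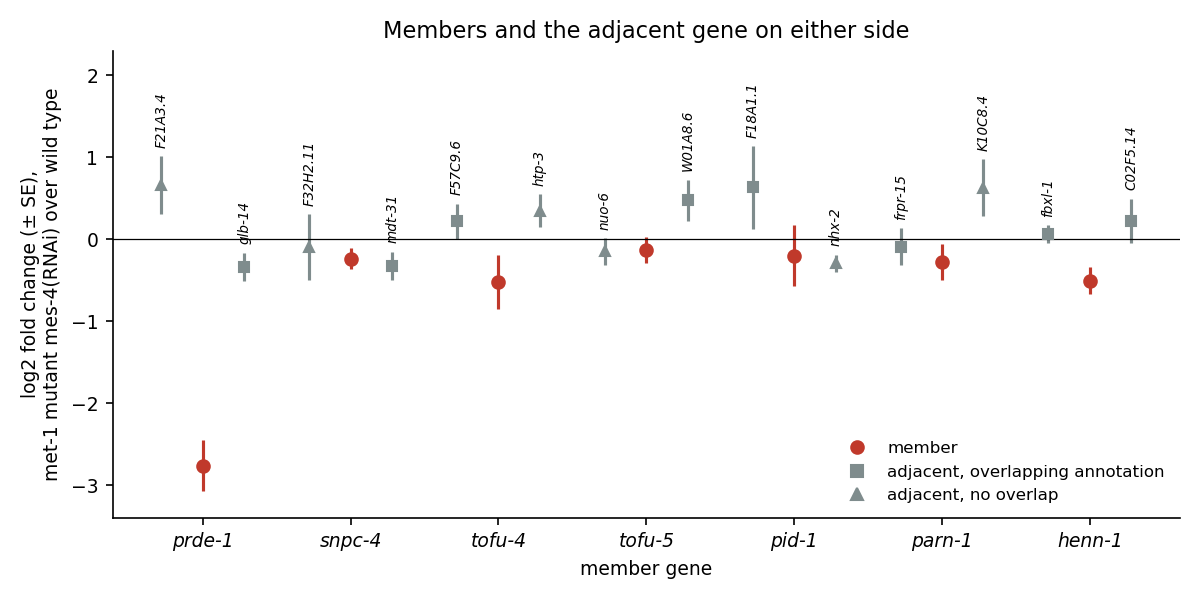
Log2 fold change (bars: 1 SE) of each of the 7 genes (red circles) and of the adjacent gene on either side in annotated order (grey; squares overlap the gene's annotation, triangles do not). prde-1, at -2.76, lies below its neighbours F21A3.4 (0.66) and glb-14 (-0.34), and none of the grey genes was called by either test.

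The rest of the pathway was described through 5 lists with 53 further genes in the count table, of which 52 were tested. Earlier results of these data were known when the lists were written, so the shares below are a description. DESeq2 called 7 of the 52 as lower and 0 as higher, beside 1.92% and 2.45% of all genes. edgeR called 0 of them. Of the 52, 45 had a log2 fold change below 0, with a median of -0.20, against 48.5% and a median of 0.01 over all tested genes. Leaving out libraries lowered the DESeq2 count from 7 to 1 without met-1 mutant mes-4(RNAi) replicate 1, to 3 without met-1 mutant mes-4(RNAi) replicate 2, to 2 without wild type replicate 1 and to 0 without wild type replicate 2.

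Genes of 5′ end processing had no call. This list holds the subunits of PETISCO and of PUCH, the nuclease that cuts precursors at the 5′ end. Of 9 tested genes DESeq2 called 0 and edgeR 0. At an unadjusted edgeR p under 0.05, 1 was lower, against 6.82% of all tested genes. The median was -0.20, and 8 lay below 0, against 48.5% of all tested genes. The smallest p values of the list belonged to tofu-1 and tofu-2, which encode Schlafen-domain subunits of PUCH. tofu-1 was at 3.44 and 3.42 CPM in met-1 mutant mes-4(RNAi) larvae, against 5.26 and 6.20 CPM in wild type larvae (log2 fold change -0.79, SE 0.23, edgeR adjusted p = 0.223). tofu-2 was at 5.78 and 4.61 CPM in met-1 mutant mes-4(RNAi) larvae and 6.70 and 6.57 CPM in wild type larvae (log2 fold change -0.41, SE 0.20). The 5 PETISCO genes of the list had log2 fold changes from -0.21 (tofu-6) to 0.03 (erh-2), both named after their values were seen, and their groups overlapped. tofu-6 was above 0 without met-1 mutant mes-4(RNAi) replicate 1, and erh-2 was below 0 without met-1 mutant mes-4(RNAi) replicate 2 or wild type replicate 1.

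Of 10 tested Argonautes and downstream factors, 3 fell and 0 rose by DESeq2, with 8 below 0 and a median of -0.21. Of all tested genes, 1.92% fell, 2.45% rose and 48.5% lay below 0. prg-1, the Piwi gene itself, had 28.2 and 33.2 CPM in met-1 mutant mes-4(RNAi) larvae, against 49.8 and 76.7 CPM in wild type larvae (log2 fold change -1.096, SE 0.26, DESeq2 adjusted p = 0.00409). pid-2, which encodes a germ granule factor acting after PRG-1, had 4.92 and 5.07 CPM in met-1 mutant mes-4(RNAi) larvae, against 9.68 and 9.02 CPM in wild type larvae (log2 fold change -0.95, DESeq2 adjusted p = 0.0208). hrde-1, the nuclear Argonaute of heritable silencing, had 28.7 and 20.1 CPM in met-1 mutant mes-4(RNAi) larvae, against 42.9 and 36.8 CPM in wild type larvae (log2 fold change -0.76, DESeq2 adjusted p = 0.0294). In each of these 3 genes every met-1 mutant mes-4(RNAi) library was below every wild type library. This held for 5 of the 10 genes, against 18.3% of all tested genes, while deps-1 was higher without overlap. None of the 3 called genes passed edgeR's test, with an adjusted p of 0.112 to 0.181. The DESeq2 call of pid-2 was lost whichever library was left out, and those of prg-1 and hrde-1 were lost in some of these fits.

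The next list was written around small nuclear RNA type transcription, the setting in which snpc-4 works. Beside snpc genes and tbp-1 it held unc-130, attf-6, isw-1 and lin-35, so its values do not describe the snpc genes alone. Among its 10 tested genes, 0 were called by DESeq2 or edgeR. At an unadjusted edgeR p under 0.05, 1 was lower, against 6.82% of all tested genes. The median was -0.16, with 9 below 0, against 48.5% of all tested genes. The smallest p of the list was that of snpc-1.3, which encodes the subunit used for male piRNAs. It had 7 and 39 reads in met-1 mutant mes-4(RNAi) larvae, against 85 and 97 reads in wild type larvae. The groups did not overlap, but the met-1 mutant mes-4(RNAi) libraries differed from each other, at 0.241 and 1.11 CPM, and the log2 fold change of -2.04 (SE 0.69) had an adjusted p of 0.286 with edgeR and 0.135 with DESeq2. Without met-1 mutant mes-4(RNAi) replicate 2, DESeq2 called it (-3.61, adjusted p = 0.0215), and without met-1 mutant mes-4(RNAi) replicate 1 it was at -1.34 (adjusted p = 0.871). Its paralogue snpc-1.2 was at 14.5 and 18.8 CPM in met-1 mutant mes-4(RNAi) larvae and 20.0 and 31.0 CPM in wild type larvae (log2 fold change -0.67, SE 0.29).

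Integrator is the complex that cleaves nascent small nuclear RNAs and is known to end transcription at piRNA genes. The list of Integrator genes, which also held xrn-2, had 3 falls and 0 rises by DESeq2 among 12 tested genes. Of all tested genes, 1.92% were called lower. The list's median was -0.41, and 10 were below 0, against 48.5% of all tested genes. In 8 every met-1 mutant mes-4(RNAi) library was below every wild type library, against 18.3% of all tested genes. ints-7 had 12.035 and 13.2 CPM in met-1 mutant mes-4(RNAi) larvae, against 21.7 and 23.4 CPM in wild type larvae (log2 fold change -0.88, SE 0.15, DESeq2 adjusted p = 0.0039). ints-2 had 30.5 and 32.4 CPM in met-1 mutant mes-4(RNAi) larvae, against 44.4 and 54.8 CPM in wild type larvae (log2 fold change -0.71). ints-4 had 40.95 and 45.7 CPM in met-1 mutant mes-4(RNAi) larvae, against 63.8 and 62.2 CPM in wild type larvae (log2 fold change -0.59). The DESeq2 adjusted p of ints-2 and ints-4 was 0.0263 and 0.0271, and the edgeR adjusted p of these genes and ints-7 was 0.103 to 0.168. The DESeq2 calls of ints-2, ints-4 and ints-7 were each lost whichever library was left out.

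Of 11 tested 3′ exonucleases and tailing enzymes, 1 fell and 0 rose by DESeq2, with 10 below 0 and a median of -0.38. Of all tested genes, 1.92% fell, 2.45% rose and 48.5% lay below 0. The fallen gene of the list was cid-1, which encodes a uridylyltransferase of small RNAs. It had 55.3 and 69.7 CPM in met-1 mutant mes-4(RNAi) larvae, against 95.3 and 127.7 CPM in wild type larvae (log2 fold change -0.89, SE 0.22, DESeq2 adjusted p = 0.011, edgeR adjusted p = 0.186). The DESeq2 call of cid-1 was lost in some of the fits that left out a library. The PARN paralogue gene parn-2, named after its values were seen, was at 21.3 and 21.3 CPM in met-1 mutant mes-4(RNAi) larvae, against 27.6 and 28.5 CPM in wild type larvae (log2 fold change -0.45), and was not called.

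**Figure D5:**
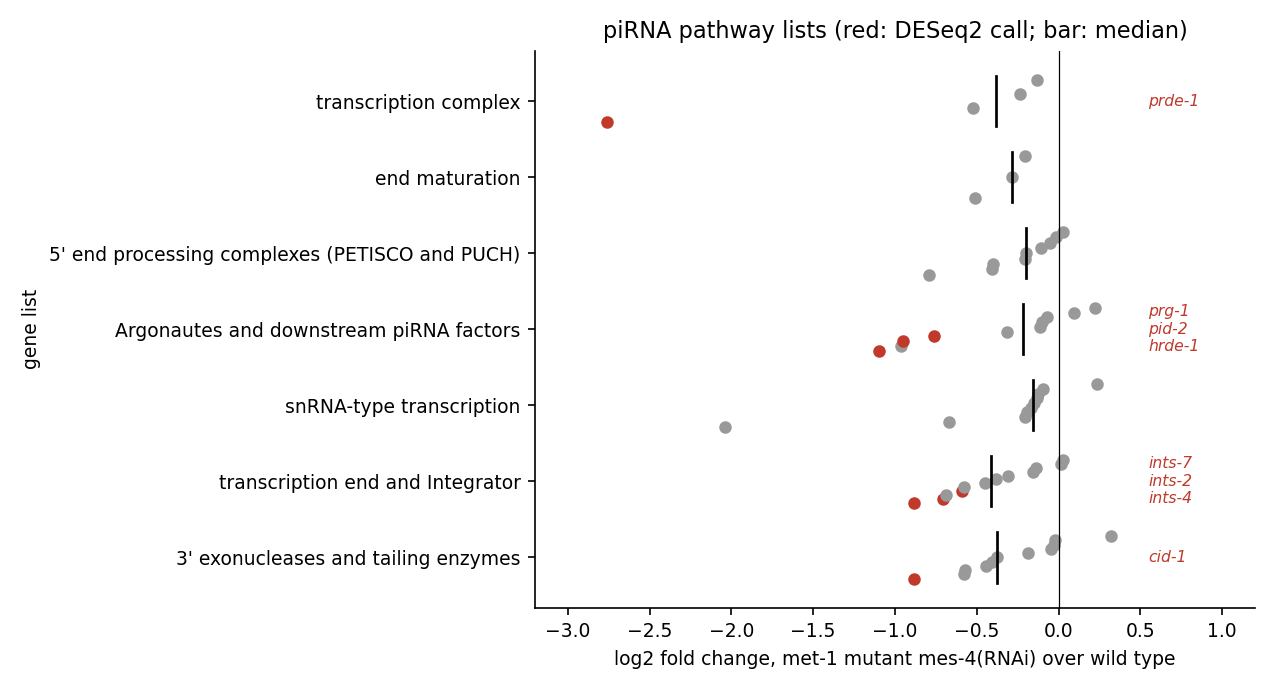
Log2 fold change (met-1 mutant mes-4(RNAi) over wild type) of every tested gene of the transcription complex, the maturation genes and the 5 further lists: each point is a gene, black bars are list medians, and red points with names on the right are DESeq2 calls. prde-1, at -2.76, lies below every other gene plotted, and all 8 calls are below 0.

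The genes whose pattern over the 4 libraries was most like that of each of the 7 were sought by the Euclidean distance of centred log2(CPM + 0.5) among 9788 genes with a mean of at least 5 CPM. For prde-1 the nearest were trmt-10C.1 (distance 0.43), which had 2.27 and 2.45 CPM in met-1 mutant mes-4(RNAi) larvae against 12.8 and 9.66 CPM in wild type larvae, and ZK973.1 (distance 0.43), with 14.4 and 9.46 CPM in met-1 mutant mes-4(RNAi) larvae against 41.1 and 39.6 CPM in wild type larvae. These were farther from prde-1 than the nearest genes of the other 6 were from them. The nearest were Y67D2.2 and pqn-59 for snpc-4, daf-5 and epg-9 for tofu-4, rpl-7A and mcm-6 for tofu-5, and M03D4.3 and Y105C5B.5 for pid-1. They were Y49A3A.3 and ahsa-1 for parn-1, and D2030.8 and let-611 for henn-1. Their distances were between 0.01 (rpl-7A) and 0.16 (Y105C5B.5). With 4 libraries, many genes share such a pattern, and the names are a description only.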

How the data were processed

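Raw counts per WormBase gene, with gene lengths, and normalized log2 values were deposited. From the values themselves, the deposited log2 table is log2(count × factor + 8), the factor of a library lying between 0.887 and 1.07. Per the submitters' processing notes the genome build was ce10. The aligner, the counter, the annotation and the strandedness were not given in the sources used here. Per the labels' protocols, 5 µg of total RNA entered a ribosomal RNA depletion kit (ScriptSeq Complete Gold). Symbols matched 19182 of 20392 identifiers, and adjacent genes came from the Ensembl annotation of WBcel235.

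Counts were filtered with filterByExpr and scaled by TMM (factors 0.962 to 1.04) in edgeR 4.0.16 (R 4.3.3), and tested without a block by glmQLFTest with Benjamini-Hochberg adjustment over all 15008 genes. The SE was taken as |log2 fold change|/√F. DESeq2 1.42.0 (Wald test, no shrinkage) was the second count test. Genes without a DESeq2 adjusted p (291) counted as not called. limma 3.58.1 served for further alternatives, and matplotlib 3.10.9 drew the figures. The procedure was tested on simulated counts drawn independently for each library. That setting lacks the correlated replicate differences given below, so it does not measure the error of the calls made here. CPM and RPKM use total counts. The 2 libraries of a group differed beyond counting noise (chi-square per degree of freedom 56.7 in met-1 mutant mes-4(RNAi) and 37.2 in wild type larvae). The series text calls them independent biological replicates. The biological coefficient of variation was 22.1%.

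Named genes were the 7 genes, met-1 and mes-4, the called genes of each list (without calls, the 2 with the smallest edgeR p), the adjacent genes and the 2 nearest patterns per gene. The called marker genes were named after their values were seen. The 7 genes and the lists were chosen with earlier results of these data known. Listed names not matched to the table, such as prg-2, ints-10 and exos-10, were not analysed here. No sequence is shown, since none was used here.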

Additional observations from a re-analysis of the deposited data

How the results depend on the processing

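The count of called genes depended on the test. edgeR called 0 genes with all 4 libraries, 128 without a filter on low counts and 2 with at least 5 CPM in 2 libraries, and DESeq2 called 655. Leaving out 1 library gave 0 to 27 genes with edgeR and 151 to 211 with DESeq2. Of the 7 piRNA genes edgeR called 0. The count was 1 (prde-1) with DESeq2 and 1 (prde-1) without a filter, and 0 to 1 when 1 library was left out (0 in all 4 edgeR fits). Of the 53 genes of the further lists edgeR called 0 and DESeq2 7, with 0 to 3 when 1 library was left out.

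The log2 fold change of prde-1 was -2.77 with DESeq2 (adjusted p = 2.93e-07) and -2.77 without a filter (adjusted p = 0.0301), both past the threshold, and -3.097 to -2.49 when 1 library was left out. Under the unblocked alternatives that left out no library, its adjusted p ranged from 2.93e-07 to 0.0717. pid-1 was at -0.55 to 0.11 when 1 library was left out, and above 0 at 0.07 to 0.11 in 4 of those 8 fits. The signs of the other 6 genes held in every one of the 17 or 18 alternatives that tested them. tofu-4, pid-1 and parn-1 could not be fitted with the 5 CPM filter, which removed them.

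Of 49 other named genes, 7 turned sign in some of those 8 fits, with log2 fold changes of -0.012 to 1.09 for F18A1.1, -0.31 to 0.092 for F32H2.11, -0.40 to 0.20 for M03D4.3, -0.28 to 0.12 for Y105C5B.5, -0.24 to 0.064 for frpr-15, -0.68 to 0.15 for tofu-6 and -0.14 to 0.17 for erh-2. The lone library of a group was then assumed to vary like the other group.

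The labels give both groups replicates 1 and 2 but do not say what a number shares. Replicate differences correlated at 0.646 across genes between the groups. With the replicate block edgeR called 3047 genes, 2 of the 7 (prde-1 at -2.77, adjusted p = 0.000369, and henn-1 at -0.51, adjusted p = 0.0271) and 22 of the further lists. DESeq2 with the replicate block called 1387 genes, 1 of the 7 (prde-1 at -2.79, adjusted p = 4.37e-08) and 14 of the further lists. The cause of these differences was not tested. Depth limits prde-1, tofu-4 and pid-1 most, with 22 to 183 reads per library.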
